A study of Mus musculus with 6 samples.

Results

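The genes described here are 50 mouse genes of the cell cycle and of DNA replication, listed by name and found by their symbol among the 35968 genes with at least 1 transcript in the files. All 50 were found, and 49 passed a filter on low counts that 13221 genes passed in all. RNA was sequenced from MS-5 cells (MS5 in the sample labels), a mouse stromal cell line, either cultured alone (MS-5 only, libraries MO1, MO2 and MO3) or for 24 hr with SKM-1, a human acute myeloid leukaemia (AML) line (co-culture, libraries MC1, MC2 and MC3). The AML cells were plated over confluent stromal cells at 4 AML cells for each stromal cell and 750000 AML cells per ml. A wash and a gentle trypsin step against SKM-1 cells still on the layer came before harvest of the MS-5 cells, and no genetic change or drug is named for either group. Each group stands for a single cell line, and the sources used here do not say whether the 3 libraries of a group came from separate cultures, so that p-values measure the spread between libraries, which may be technical.

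A cell that leaves rest first raises D-type cyclins, which with Cdk4 and Cdk6 release the E2F transcription factors, and then E-type cyclins with Cdk2. Licensing factors load the Mcm helicase on origins in G1, and the helicase, Pcna and their partners copy the DNA in S phase while ribonucleotide reductase and thymidylate synthase supply deoxynucleotides. Cyclin A and cyclin B with Cdk1, the Aurora and Polo kinases, the spindle checkpoint and the anaphase-promoting complex then carry the cell through G2 and mitosis, and the CDK inhibitors hold these kinases back. The share of cells that cycle sets much of the level of these transcripts, and for MS-5 cells it was not measured here. In bulk RNA, fewer cycling cells and less of a transcript in each cycling cell cannot be told apart.

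Many replication genes carry E2F sites in their promoters, and many G2/M genes carry a cell cycle homology region (CHR) near CCAAT boxes. RefSeq's promoter windows (GRCm38.p6, 250 bases before to 50 after the annotated start) were given for 40 of the 50 genes and 27025 genes in all. Some genes had more than 1 window, and a gene was counted once where any of its windows held a match. The E2F letters searched were tttcccgc, tttggcgc and tttcgcgc, the CHR letters TTTGAA and the CCAAT box CCAAT, each on both strands. An E2F match was found for 6 of the 10 licensing and fork genes, for 1 of the 16 G2/M genes and for 2.12% of all genes with a window. A CHR match was found for 11 of the 16 G2/M genes, 2 of the 10 licensing genes and 20.2% of all genes. A CCAAT match was found for 14 of the 16 G2/M genes, 8 of the 10 licensing genes and 41.1% of all genes. The letters ACGTG, the core to which hypoxia-inducible factors bind, were found, on either strand, for 14 of the 40 genes (35%) and for 21.8% of all genes. By role they were found for 4 of the 5 G1 cyclin and kinase genes with a window, 6 of the 16 G2/M genes and 1 of the 10 licensing genes. Of the 40 genes, 9 had an E2F match, 15 a CHR match and 30 a CCAAT match. These matches describe the letters of the windows and are no measure of binding.

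The stretches below show 3 of the Mcm promoters and 2 promoters of G2/M kinase and motor genes, with the E2F, CHR and CCAAT letters in capitals and the ACGTG letters not marked. Mcm5 and Mcm6 encode subunits of the replicative helicase, and each has E2F letters on both strands in an overlapping pair. Mcm10, a factor that activates the helicase and the licensing gene with the largest change in co-culture, has CCAAT matches and none of the E2F letters in its stretch. Cdk1 has E2F, CHR and CCAAT matches, and Kif11, a spindle motor, has a CCAAT match on the other strand with a CHR match nearer the start. The stretches were read on the strand of the gene, at chr8:75109349-75109508 (plus strand) for Mcm5, chr1:128359706-128359865 (minus) for Mcm6, chr2:5012792-5012951 (minus) for Mcm10, chr10:69352939-69353098 (minus) for Cdk1 and chr19:37376222-37376381 (plus) for Kif11.
Mcm5: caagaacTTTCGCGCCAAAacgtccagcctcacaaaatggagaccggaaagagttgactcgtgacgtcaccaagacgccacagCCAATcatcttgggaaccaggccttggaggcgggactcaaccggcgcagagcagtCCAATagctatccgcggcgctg
Mcm6: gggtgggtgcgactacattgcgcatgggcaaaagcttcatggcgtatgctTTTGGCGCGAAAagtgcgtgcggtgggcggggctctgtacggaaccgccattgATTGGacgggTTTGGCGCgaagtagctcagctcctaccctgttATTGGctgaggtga
Mcm10: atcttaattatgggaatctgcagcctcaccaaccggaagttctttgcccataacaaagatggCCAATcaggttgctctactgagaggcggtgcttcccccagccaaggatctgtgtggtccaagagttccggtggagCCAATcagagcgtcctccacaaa
Cdk1: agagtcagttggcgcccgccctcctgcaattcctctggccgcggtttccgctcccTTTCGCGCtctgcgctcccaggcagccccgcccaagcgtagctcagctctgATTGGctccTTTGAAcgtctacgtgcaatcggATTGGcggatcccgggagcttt
Kif11: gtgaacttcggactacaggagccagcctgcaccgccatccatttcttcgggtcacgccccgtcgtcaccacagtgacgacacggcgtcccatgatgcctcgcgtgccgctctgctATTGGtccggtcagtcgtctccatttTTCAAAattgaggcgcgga
Counted in bases before the RefSeq start, the E2F letters of Mcm5 begin at 153 and 149, those of Mcm6 at 110, 106 and 47, and those of Cdk1 at 131. In the printed stretches the CHR letters begin at 71 in Cdk1 and at 19 in Kif11. The stretch of Cdk1 ends 27 bases before the start, and a further CHR match of its window lies nearer the start than that.

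Total estimated counts ranged from 23978881 to 35694987 per library. The labels name no batch, but the study's PCA plot sets MO2 and MC3 apart from the rest. Both had fewer mitochondrial counts (6.03% and 5.89% of the counts, against 10.5% to 13.1%) and more transcripts with a count (65170 and 66456, against 51533 to 57350). Since each group holds 1 of the 2, the comparison was made over all 6 libraries, then with a covariate that marks MO2 and MC3, and then on MO1, MO3, MC1 and MC2 alone. Stromal markers were present in all 6 libraries (summed 5224 to 6240.0 CPM in MS-5 only and 5842 to 7666 CPM in co-culture, where CPM are normalized counts scaled by library size), with 0 of the 11 tested markers past the threshold and Lum at or near 0. With the covariate, 2 of the 11 (18.2%) were called higher by edgeR's test, where 13.9% of all genes tested were. These were Pdgfra (log2 fold change 0.69, adjusted p = 0.0124) and Pdgfrb (0.28, adjusted p = 0.0499). In TPM the groups of both genes overlapped. Of 13 leukocyte markers tested, 8 were called higher in co-culture (3.71% of all genes tested were), and 10 with the covariate (13.9% of all genes). The summed level of the list was 30.2 to 67.2 CPM in MS-5 only, and 77.6, 290 and 74.9 CPM in MC1, MC2 and MC3. Lyz2, Cd74 and Cd53, the 3 tested markers not called in either fit, made up most of the sum in MS-5 only. Without them it was 1.27 to 3.88 CPM in MS-5 only and 41.2, 244 and 43.2 CPM in MC1, MC2 and MC3. Irf8 and Cd37 were at 0 in every MS-5 only library.

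In co-culture, most of the cell cycle genes had lower transcript levels. Their median log2 fold change was -0.56, against -0.02 over all genes tested, and 46 of the 49 genes had a negative value. Tested with edgeR (quasi-likelihood, Benjamini-Hochberg adjustment over all genes tested), 5 genes passed an adjusted p of 0.1 as lower in co-culture (10.2% of the 49 genes, against 0.666% of all genes tested). These were Mcm10, Rrm2, Cdc6, Ccnb1 and Cdc45. None of the 49 passed as higher, where 3.71% of all genes tested did, while 30 had an unadjusted p under 0.05, as 14.3% of all genes tested had. On the CPM scale, which the overlap of groups refers to where no other is named, all co-culture libraries were below all MS-5 only libraries in 28 genes (57.1%), as in 9.6% of all genes tested. In 2 genes, Ccnd2 and Cdkn1a, all co-culture libraries were above, as in 11.6% of all genes, and in 19 genes the groups overlapped.

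Which genes had groups that did not overlap depended in part on the scale. TPM corrects for transcript length and, unlike CPM here, is not scaled by TMM, a normalization between libraries. The TMM factors were 1.17 for MO2 and 1.18 for MC3, and 0.923 to 0.927 for the others. In TPM all co-culture libraries were below in 27 of the 49 genes (55.1%, against 7.53% of all genes tested). They were above in 0 (7.68% of all genes). The genes below on both scales numbered 19, where 252 of all 13221 genes tested were below on both. Over all genes tested, 1017 were below in CPM only and 744 in TPM only. Below in CPM and overlapping in TPM were Ccne1, E2f8, Mcm10, Cdc45, Bub1, Bub1b, Aurkb, Kif11 and Kif20a, and Ccnd2 and Cdkn1a, above in CPM, overlapped in TPM as well. Overlapping in CPM and below in TPM were Cdk4, E2f1, Mcm3, Mcm5, Mcm6, Mcm7, Rrm1 and Plk1.

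With the covariate for MO2 and MC3, edgeR's test called 39 of the 49 genes lower (79.6%, against 16.4% of all genes tested) and 2 higher, Cdkn1a and Cdkn1b (13.9% of all genes tested were higher). On MO1 and MO3 against MC1 and MC2 alone, 29 genes were lower (59.2%, against 4.6% of all genes tested) and 1 was higher, Cdkn1a (7.92% of all genes). The 5 genes called over all 6 libraries were also called with the covariate, and 34 more were called lower with it. MC3 lay below MO2 in 46 of the 49 genes, with a median log2 difference of -0.54, against 7381 of all 13221 genes and a median of -0.041, so that the median difference of the 49 genes within the libraries set apart was close to that over all 6. Leaving out any MS-5 only library or MC1 left 0 of the 49 genes past the threshold. Leaving out MC2 left Ccnb1 and leaving out MC3 left Mcm10. Over all genes tested, these 6 fits called from 0 to 509 genes. In every one of these 6 fits, 41 of the 49 genes had a negative log2 fold change.

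**Figure D1:**
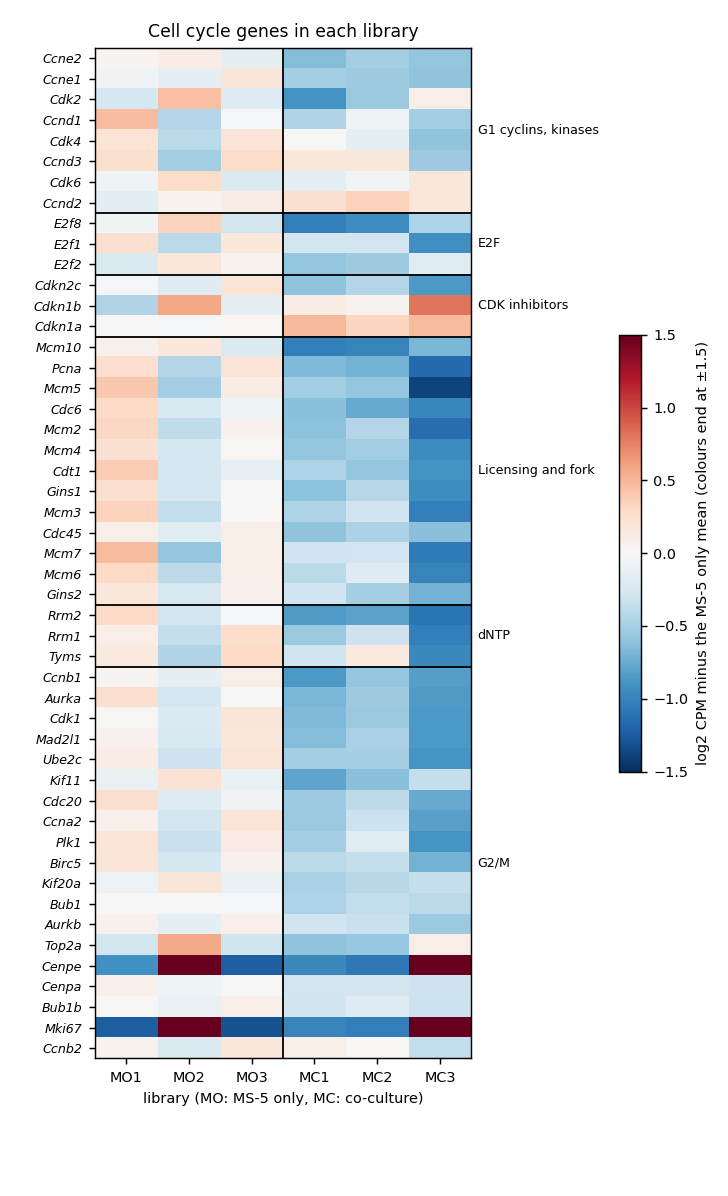
Heat map of the 49 tested genes (rows, by role and then by log2 fold change) in the 6 libraries (columns, MS-5 only left of the line and co-culture right of it). Colour gives log2 CPM minus the mean of the MS-5 only libraries, with blue for lower values and colours ending at 1.5 in either direction. Most rows are blue in MC1, MC2 and MC3. On this scale Cdkn1a, Cdkn1b and Ccnd2 lie above the MS-5 only mean in all of these libraries. Some other rows do so in part, such as Ccnd3 in MC1 and MC2 and Tyms in MC2. Mki67 and Cenpe are dark red in MO2 and MC3.

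Taken library by library, the summed level of all 50 genes was 5082 TPM in MO1, 6138 in MO2 and 4788 in MO3, while it was 3474 for MC1, 3467 for MC2 and 4459 for MC3. TPM can be summed and compared between genes. The groups did not overlap in this sum, although MC3 came close to MO3. The highest mean level over the 6 libraries was that of Cdk4 (612 TPM), followed by Cdk1 (416), Rrm2 (219) and Cenpa (188). The CDK inhibitor Cdkn1c was the lowest, with no count in MO1, MO2, MO3 or MC1.

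The genes of the G1 cyclins and their kinases had a median log2 fold change of -0.32, the nearest to 0 of the groups outside the inhibitors, and 0 of the 8 passed the threshold over all 6 libraries by edgeR's test (2 had an unadjusted p under 0.05, as 14.3% of all genes tested had). With the covariate 4 of the 8 were called lower (Ccne1, Ccne2, Cdk2 and Cdk4), where 16.4% of all genes were. Ccne1 and Ccne2 encode cyclin E, which drives entry into S phase. Ccne2 had 16.4, 17.1 and 14.3 CPM in MO1, MO2 and MO3, and 10.2, 11.2 and 10.6 CPM in MC1, MC2 and MC3. Ccne1 had 37.5, 35.5 and 44.1 CPM in MS-5 only and 27.3, 26.8 and 25.5 CPM in co-culture. In both genes all co-culture libraries were below all MS-5 only libraries, in Ccne2 on both scales and in Ccne1 in CPM only. On the log2 scale the fold change (with its standard error, SE) was -0.58 for Ccne2 (SE 0.15, edgeR adjusted p = 0.118) and -0.56 for Ccne1 (SE 0.14, adjusted p = 0.109). With the covariate the adjusted p was 0.02 for Ccne2 and 0.0158 for Ccne1.

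Cdk4, the kinase partner of the D-type cyclins, had 669, 439 and 666 CPM in MS-5 only and 580, 527 and 382 CPM in co-culture. The groups overlapped in CPM, though not in TPM, with MO2 the lowest library of MS-5 only and MC3 the lowest of co-culture. By edgeR it changed by -0.25 (SE 0.26, adjusted p = 0.78), and by -0.25 with the covariate (SE 0.07, adjusted p = 0.0587). The D-type cyclins did not share a direction. Ccnd2 had 287, 335 and 348 CPM in MS-5 only and 376, 410 and 361 CPM in co-culture, where every library was higher, with MC2 the highest (log2 fold change 0.24, SE 0.16, adjusted p = 0.586). On log2(TPM + 0.5) its value was -0.04 by limma, so that its direction depended on the scale. Ccnd1 had a log2 fold change of -0.38 (adjusted p = 0.603) and Ccnd3 of -0.08 (adjusted p = 0.971), neither past the threshold in any of the 3 fits.

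Among the E2F genes, whose products switch the S phase genes on (E2f1, E2f2) or off again (E2f8), all 3 had negative values, with a median of -0.49. None passed over all 6 libraries by edgeR's test, where 1 of the 3 had an unadjusted p under 0.05 (14.3% of all genes tested had), and all 3 were called lower with the covariate (16.4% of all genes were). E2f8 had 37.9, 50.4 and 32.8 CPM in MS-5 only and 19.6, 20.8 and 28.8 CPM in co-culture. MO2 and MC3 were each the highest library of their group, and the groups did not overlap in CPM, though they did in TPM. Its log2 fold change of -0.81 had an SE of 0.23 over all 6 libraries (adjusted p = 0.15) and of 0.08 with the covariate (adjusted p = 0.0105). E2f1 had 61.0, 39.0 and 57.7 CPM in MS-5 only and 42.5, 42.4 and 27.2 CPM in co-culture, and here MO2 and MC3 were the lowest of their groups. The groups of E2f1 overlapped in CPM but not in TPM, and its log2 fold change was -0.49 (adjusted p = 0.451, and 0.0124 with the covariate).

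The CDK inhibitors, which bind cyclin-kinase complexes or Cdk4 and Cdk6 and hold the cell in G1, did not move as a group. Cdkn1a, the p21 gene, had 120, 118 and 123 CPM in MS-5 only and 168, 151 and 168 CPM in co-culture. On this scale all co-culture libraries lay above the MS-5 only libraries (120 ± 2.55 CPM against 162 ± 9.78 CPM, SD, n = 3 each). The TPM of Cdkn1a was 75.2, 118 and 75.5 in MO1, MO2 and MO3 and 107, 91.5 and 171 in MC1, MC2 and MC3, so that MO2 lay above MC1 and MC2 and the groups overlapped. The change was 0.43 (SE 0.12, edgeR adjusted p = 0.141), and it passed with the covariate (adjusted p = 0.0164) and on 4 libraries (adjusted p = 0.0882). Cdkn1b, the p27 gene, had 30.0, 61.7 and 37.5 CPM in MS-5 only and 44.5, 42.5 and 71.9 CPM in co-culture. The high libraries were MO2 and MC3, so that the groups overlapped, and the log2 fold change of 0.30 had an adjusted p of 0.806 over all 6 libraries and of 0.0718 with the covariate.

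Cdkn2c, the p18 inhibitor of Cdk4 and Cdk6 and itself an E2F target, had 45.8, 40.4 and 53.5 CPM in MS-5 only and 30.5, 34.1 and 25.4 CPM in co-culture. No co-culture library reached an MS-5 only library, and the log2 fold change was -0.63 (SE 0.17, adjusted p = 0.139, and 0.0138 with the covariate, from edgeR). Cdkn1c, the p57 gene, had 0 counts in MS-5 only and in MC1, 4 in MC2 and 1 in MC3, and was not tested. Set against a gene of mitosis in the same library, Cdkn1a stood at 0.696, 0.832 and 0.677 times the TPM of Ccnb1 in MS-5 only and at 1.82, 1.41 and 1.84 times in co-culture. This ratio, chosen after the values were seen, did not overlap between the groups. In TPM the groups of Ccnb1 alone did not overlap either, while those of Cdkn1a did.

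**Figure D2:**
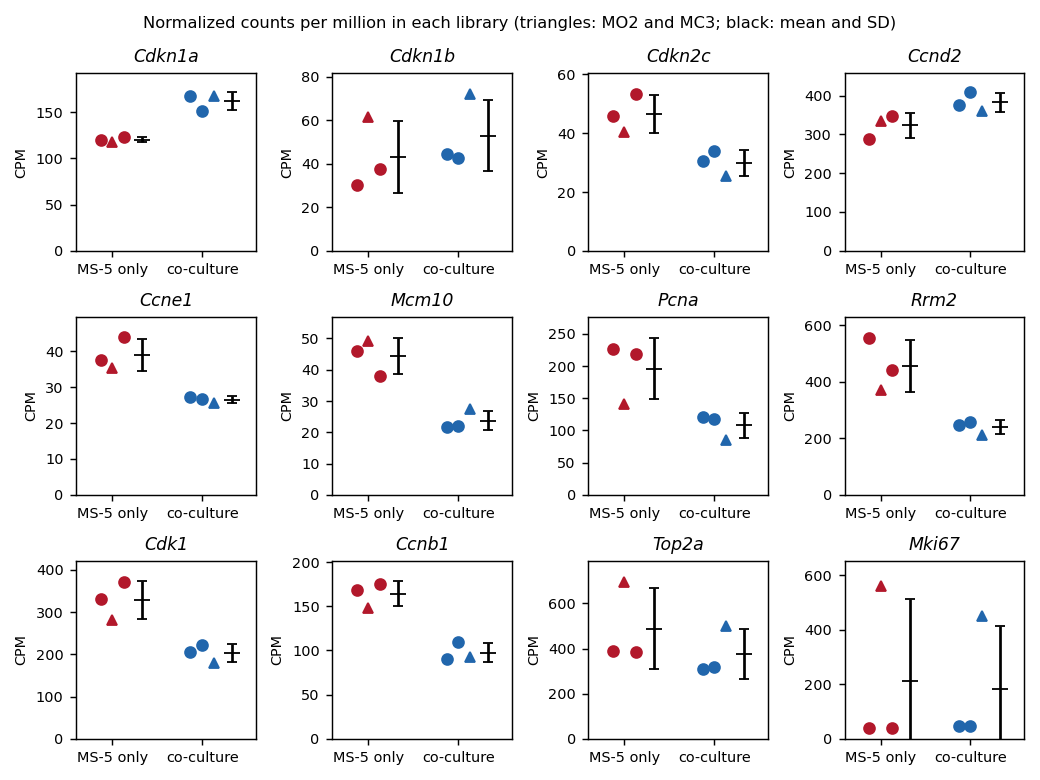
Normalized CPM of 12 genes in each library, with MS-5 only in red, co-culture in blue, triangles for MO2 and MC3, and the mean and SD of each group in black (n = 3), all axes starting at 0. In CPM Cdkn1a and Ccnd2 lie higher and Cdkn2c, Ccne1, Mcm10, Pcna, Rrm2, Cdk1 and Ccnb1 lie lower in all co-culture libraries, and MO2 and MC3 set the spread of Cdkn1b, Top2a and Mki67. In TPM the groups of Cdkn1a, Ccnd2, Ccne1 and Mcm10 overlap.

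The genes of origin licensing and the replication fork had the lowest values of the larger groups. All 13 were negative, between -0.90 and -0.50, with a median of -0.66. Over all 6 libraries 3 were called lower (Mcm10, Cdc6 and Cdc45, where 0.666% of all genes tested were), with the covariate all 13 were (16.4% of all genes), and on 4 libraries 12 were (4.6% of all genes). MC3 was below MO2 in each of the 13, and in 7381 of all 13221 genes.

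Mcm10 (GRCm38 chromosome 2, 4989714 to 5012791) had 46.1, 49.2 and 38.1 CPM in MS-5 only and 21.7, 22.1 and 27.4 CPM in co-culture. The groups did not overlap in CPM, MC3 being the highest co-culture library, and the log2 fold change was -0.90 (SE 0.16, edgeR adjusted p = 0.0734). Cdc6 (chromosome 11, 98907801 to 98923940), which loads the helicase on origins, had 39.6, 27.6 and 30.8 CPM in MS-5 only and 20.8, 19.1 and 16.4 CPM in co-culture. Cdc6 fell by 0.80 in log2 units (SE 0.19, edgeR adjusted p = 0.0968), and with the trend of transcript length removed its adjusted p was 0.115. Cdc45 (chromosome 16, 18780447 to 18811987), a part of the active helicase with the Mcm and Gins proteins, had 62.6, 52.2 and 62.7 CPM in MS-5 only and 38.8, 42.3 and 38.1 CPM in co-culture. It changed by -0.57 (SE 0.13, edgeR adjusted p = 0.0947). These 3 genes were picked by a test on the same counts, and 9.6% of all genes tested were lower without overlap in CPM. In CPM none of the 3 genes had groups that overlapped. In TPM this held for Cdc6, while MC3 lay above MO3 in Mcm10 (16.1 against 14.1 TPM) and slightly above it in Cdc45 (34.7 against 34.6 TPM).

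Pcna, the sliding clamp of the polymerases, had 227, 141 and 219 CPM in MS-5 only and 121, 117 and 85.6 CPM in co-culture. The groups did not overlap, and MO2 and MC3 were each the lowest of their group. The log2 fold change was -0.86 (SE 0.24, adjusted p = 0.145, and 0.00867 with the covariate, the lowest of the 49 genes, from edgeR). Mcm7, the licensing gene with the highest mean TPM, had 489, 236 and 378 CPM in MS-5 only and 285, 288 and 168 CPM in co-culture. MO2 lay below MC1 and MC2, so that the groups overlapped in CPM, though not in TPM. The change of Mcm7 was -0.57 over all 6 libraries (SE 0.33, adjusted p = 0.524) and -0.56 with the covariate (SE 0.11, adjusted p = 0.021).

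The other Mcm subunits also had negative values, with log2 fold changes of -0.73 for Mcm2, -0.59 for Mcm3, -0.69 for Mcm4, -0.82 for Mcm5 and -0.52 for Mcm6, and adjusted p-values from 0.15 to 0.464. With the covariate their adjusted p-values lay between 0.011 and 0.0178. Mcm5, whose promoter is shown above, had 382, 202 and 311 CPM in MS-5 only and 202, 193 and 110 CPM in co-culture. Mcm6 had 301, 186 and 262 CPM in MS-5 only and 185, 214 and 122 CPM in co-culture. In Mcm6 MO2 lay below MC2 and in Mcm5 it lay just below MC1, while in TPM neither gene had groups that overlapped. The licensing factor Cdt1 (-0.66) and the Gins genes (Gins1 -0.66, Gins2 -0.50) were lower in every co-culture library, with adjusted p-values from 0.188 to 0.235 over all 6 libraries and from 0.0158 to 0.0232 with the covariate.

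Of the genes of deoxynucleotide supply, Rrm2 had the largest change of all 49 genes. It encodes the small subunit of ribonucleotide reductase, which is made in S phase, and lies on chromosome 12 (24708241 to 24714146). Rrm2 had 554, 371 and 441 CPM in MS-5 only and 249, 256 and 210 CPM in co-culture. All 3 co-culture libraries lay well below MO2, the lowest MS-5 only library, and the log2 fold change was -0.93 (SE 0.20, edgeR adjusted p = 0.087), or 1.91-fold lower. Rrm1, the large subunit, had 473, 345 and 529 CPM in MS-5 only and 301, 358 and 218 CPM in co-culture. MC2 lay above MO2 in CPM, though not in TPM, and the log2 fold change of -0.62 had an adjusted p of 0.345 over all 6 libraries and 0.0148 with the covariate.

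Tyms, thymidylate synthase, was the member of this group that passed in none of the 3 fits. It had 107, 70.7 and 119 CPM in MS-5 only and 78.2, 107 and 49.5 CPM in co-culture, so that MC2 reached the level of MO1. Its log2 fold change was -0.34 (adjusted p = 0.756 and, with the covariate, 0.101). The transcript Tyms-208 had 12.9 CPM in MC2 and at most 4.74 CPM in any other library. Such an excess in MC2, the library with the most leukocyte marker counts, was found in 3 of the 267 transcripts of the 50 genes, the others being Mcm2-207 (3.68 CPM in MC2) and Ccnd3-219 (2.68 CPM in MC2). The definition of the excess was set after the values were seen, and the part of human RNA in it was not tested.

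**Figure D3:**
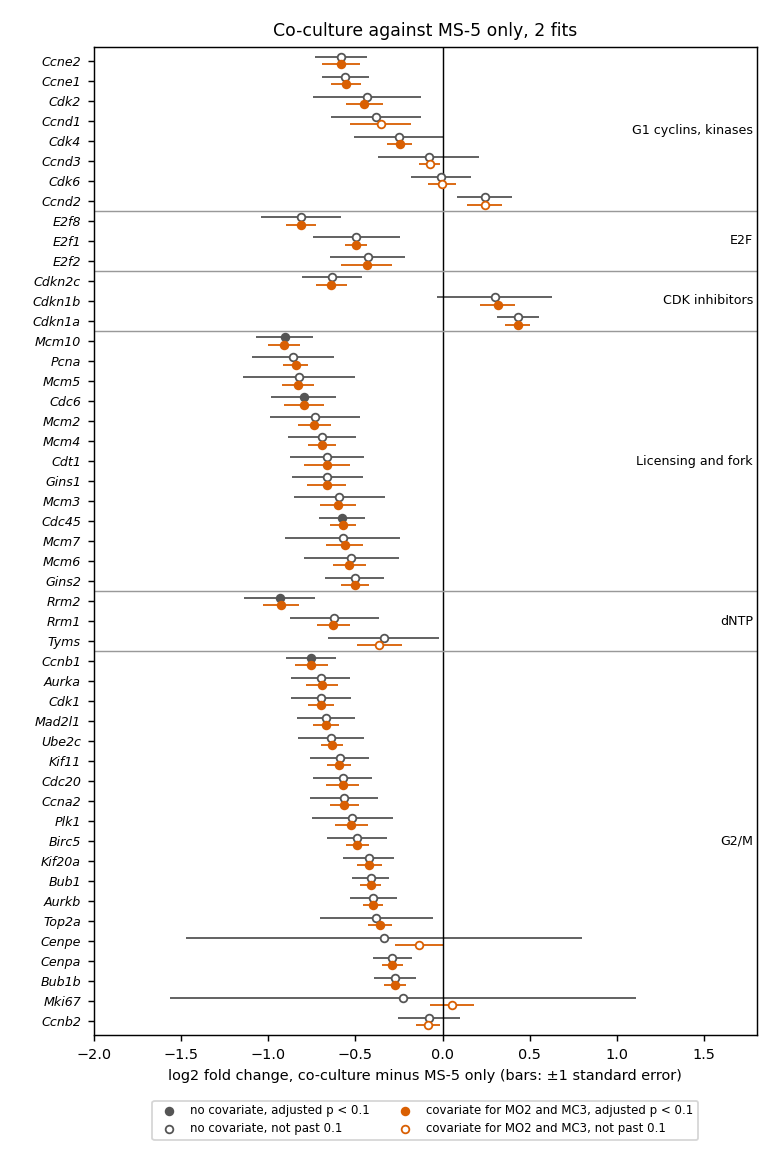
Log2 fold change of the 49 genes in co-culture against MS-5 only (x axis) with bars of 1 SE (standard error), from edgeR's quasi-likelihood fit over all 6 libraries (grey) and from the fit with the covariate (orange). Filled points have an adjusted p under 0.1. The estimates of both fits lie close together except for Mki67 and Cenpe, the bars are shorter with the covariate, and 5 grey and 41 orange points are filled.

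All 19 G2/M genes had negative log2 fold changes, with a median of -0.49, and 1 of them, Ccnb1, passed over all 6 libraries, where 13 had an unadjusted p under 0.05 (14.3% of all genes tested had). With the covariate 16 were lower (16.4% of all genes were), and on 4 libraries 11 were (4.6% of all genes). In 14 of the 19 (73.7%, against 9.6% of all genes) no co-culture library reached an MS-5 only library in CPM, and in TPM this held for 10 (52.6%, against 7.53%). Ccnb1 (GRCm38 chromosome 13, 100778650 to 100786570) encodes cyclin B1, the partner of Cdk1 at entry into mitosis. It had 168, 149 and 176 CPM in MS-5 only and 89.9, 110 and 92.5 CPM in co-culture, so that the highest co-culture library was well below the lowest MS-5 only library. The change was -0.75 on the log2 scale (SE 0.14, edgeR adjusted p = 0.0742).

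Cdk1, the kinase of mitosis and the G2/M gene with the highest mean TPM, had 330, 282 and 371 CPM in MS-5 only and 206, 221 and 179 CPM in co-culture. Aurka, the Aurora kinase of the spindle poles, had 124, 87.7 and 105 CPM in MS-5 only and 64.9, 72.2 and 58.0 CPM in co-culture. Neither gene had groups that overlapped. The change of both was -0.70 (SE 0.17), with an adjusted p of 0.111 for Cdk1 and 0.11 for Aurka over all 6 libraries by edgeR, and of 0.011 and 0.0124 with the covariate. Kif11, the spindle motor whose promoter is shown above, had 66.2, 83.2 and 66.7 CPM in MS-5 only and 41.5, 46.3 and 55.8 CPM in co-culture. Kif11 changed by -0.59 (adjusted p = 0.155, and 0.011 with the covariate), with no overlap in CPM. In TPM its groups overlapped, MC3 (20.1) lying above MO1 (15.2) and MO3 (14.9).

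The spindle checkpoint genes were lower in every co-culture library in CPM, with log2 fold changes of -0.67 for Mad2l1, -0.41 for Bub1 and -0.27 for Bub1b. Bub1 had 71.5 ± 0.826 CPM in MS-5 only against 53.7 ± 1.74 CPM in co-culture (SD, n = 3 each), but in TPM 28.1 ± 7.99 against 22.1 ± 8.08. In TPM the groups of Bub1 and Bub1b overlapped, with MC3 above MO1 and MO3, and those of Mad2l1 did not. The genes of the anaphase-promoting complex pathway, the activator Cdc20 and the ubiquitin-conjugating enzyme Ube2c, had log2 fold changes of -0.57 and -0.64. Cyclin A2 (Ccna2, -0.56), the Polo kinase Plk1 (-0.52), the partners Aurkb and Birc5 of the chromosomal passenger complex (-0.40 and -0.49), the motor Kif20a (-0.42) and the centromeric histone Cenpa (-0.29) were all called lower with the covariate and not over all 6 libraries. Ccnb2, the other B-type cyclin, had 112, 93.8 and 122 CPM in MS-5 only and 117, 110 and 84.2 CPM in co-culture, and its change of -0.08 (adjusted p = 0.942, and 0.438 with the covariate) was within the spread of the libraries.

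G1/S genes (the G1 cyclins and kinases, E2F, licensing and deoxynucleotide genes, 27 in all) had a median log2 fold change of -0.57, against -0.49 for the 19 G2/M genes. The difference between these medians was not tested. The summed TPM of the G1/S genes over that of the G2/M genes was 1.41, 1.02 and 1.28 in MO1, MO2 and MO3 and 1.34, 1.36 and 1.03 in MC1, MC2 and MC3. The ratio overlapped between the groups and was lowest in MO2 and MC3. Without Mki67, Cenpe and Top2a it was 1.5, 1.21 and 1.36 for MS-5 only, against 1.45, 1.46 and 1.23 for co-culture.

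Those 3 G2/M genes were higher in MO2 and MC3 than in the other libraries. Mki67, which encodes the Ki-67 protein of proliferating cells, had 40.7, 561 and 38.8 CPM in MS-5 only and 48.0, 46.7 and 452 CPM in co-culture. Cenpe, a kinetochore motor, had 13.8, 114 and 11.0 CPM in MS-5 only and 13.2, 12.3 and 84.5 CPM in co-culture. Top2a, the topoisomerase that untangles sister chromatids, had 388, 694 and 382 CPM in MS-5 only and 308, 316 and 502 CPM in co-culture. These genes were chosen after their values were seen. Mki67 was 11.6-fold, Cenpe 7.80-fold and Top2a 1.70-fold higher in MO2 and MC3 than in the other 4 libraries, and 2 of the 49 genes exceeded 2-fold, where 8.91% of all genes tested did. In the co-culture comparison the log2 value of Mki67 was -0.23 with an SE of 1.33 over all 6 libraries and 0.05 (SE 0.12, adjusted p = 0.789) with the covariate, and passed in neither fit by edgeR's test. Top2a had -0.38 (adjusted p = 0.714), and with the covariate -0.36 (SE 0.07, adjusted p = 0.0217). Cenpe passed in neither fit.

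**Figure D4:**
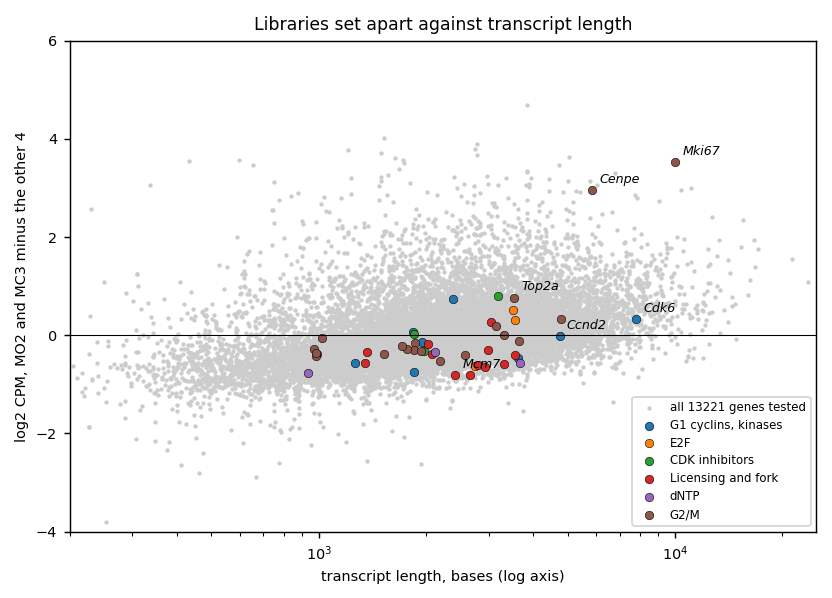
Difference of mean log2 CPM between MO2 with MC3 and the other 4 libraries (y axis) against transcript length in bases (x axis, log scale), for all genes tested (grey) and for the 49 cell cycle genes coloured by role. The long transcripts of Mki67 and Cenpe lie high, and most licensing and fork genes lie below 0.

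The difference of MO2 and MC3 from the other 4 libraries was negative in 12 of the 13 licensing and fork genes (median -0.39 on the log2 scale) and in all 3 deoxynucleotide genes (median -0.56), and in 13 of the 19 G2/M genes (median -0.23), while it was positive in the other 6 G2/M genes. Longer transcripts tended to have the higher values, with exceptions such as Rrm1 (3666 bases, -0.56). Over the 49 genes the difference had a Pearson r of 0.58 and a Spearman rho of 0.37 with the log2 of transcript length, over the 19 G2/M genes 0.77 and 0.66, and over all 13221 genes 0.40 and 0.44. These values are across genes of the same libraries, which are not independent. Transcripts annotated as retaining an intron took 4.04% and 3.98% of the counts of the 50 genes in MO2 and MC3, against 1.99% to 2.26% in the other libraries. In Cdk2, which was among the genes higher in MO2 and MC3 (44.1, 72.1 and 46.1 CPM in MS-5 only and 28.3, 36 and 56.0 CPM in co-culture), they took 29.2% and 33%, against 5.85% to 9.42%. What set MO2 and MC3 apart was not tested. With the trend of each library with transcript length removed, an alternative chosen after the values were seen, edgeR's test called 14 genes lower and 1 higher, Cdkn1a, where 1.16% and 4.73% of all genes tested were called.

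Further genes of the same pathways came from 3 lists that share no gene with the 50, and 14 of the 137 tested passed over all 6 libraries. Of 47 other DNA replication genes tested, 7 were called lower and 0 higher by edgeR's test over all 6 libraries (40 lower and 0 higher with the covariate), and their median log2 fold change was -0.53. Of 53 other mitosis genes, 4 were called lower and 0 higher (45 lower and 0 higher with the covariate), with a median of -0.46. Of 37 other cell cycle regulators, 3 were called lower and 0 higher (12 lower and 6 higher with the covariate), with a median of -0.16 and 13 positive values. Over all genes tested, 0.666% were called lower and 3.71% higher over the 6 libraries, and 16.4% lower and 13.9% higher with the covariate. The 5 largest changes among the 14 called genes were those of Uhrf1, a partner of maintenance DNA methylation (-0.93, adjusted p = 0.0734), the origin recognition subunits Orc1 (-0.90, adjusted p = 0.0779) and Orc2 (-0.85, adjusted p = 0.0734), the mitotic kinase Pbk (-0.87, adjusted p = 0.0895) and Fbxo5, an inhibitor of the anaphase-promoting complex (-0.77, adjusted p = 0.0734). Fbxo5 had 42.1, 41.5 and 45.1 CPM in MS-5 only and 24.9, 25.2 and 25.2 CPM in co-culture. The 14 genes were picked by a test on the same counts, and none of them had groups that overlapped in CPM (9.6% of all genes tested were lower without overlap). In TPM the groups of 10 overlapped, and those of Orc2, Pbk, Cenpn and Fbxo5 did not (7.53% of all genes).

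The annotation names processed pseudogenes for some of the 50 genes, whose reads the quantification could have split with the parent gene, so that the levels of Pcna, Ccnd3, Ccnb1 and Ccnb2 are uncertain to that extent. In MS-5 only, Pcna-ps2 had 227, 223 and 198 estimated counts, and in co-culture 253, 651 and 311. For Ccnd3-ps the estimated counts were 0, 2 and 1 without SKM-1 cells and 36, 233 and 38 with them. Both were highest in MC2. Without MC2 the median log2 fold change of the 49 genes was -0.62, and it ranged from -0.62 to -0.52 when each of the 6 libraries was left out in turn.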

How the data were processed

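RNA-seq was done on 3 libraries of MS-5 cells cultured alone and 3 of MS-5 cells kept with SKM-1, grouped by the sample labels. Stranded mRNA libraries were quantified by the authors with Kallisto against a mouse cDNA index (the submitters' notes name kallisto 0.43.0, FastQC 0.11.7, sleuth 0.30.0 and mm10), and for each transcript the deposited estimated counts, not normalized between libraries, and the authors' TPM values were used. The deposited transcript lengths, in bases, served for the length trend. Whether the quantification used strand is not given in the sources used here.

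Of 118489 transcripts, 116728 matched GENCODE M21 (GRCm38) by identifier, version and length, and 1761 were left out (0.476% to 0.562% of the counts). Estimated counts were summed per gene, rounded and normalized by TMM (factors 0.923 to 1.18) after edgeR's filterByExpr. Both groups were compared in R 4.3.3 with the quasi-likelihood test of edgeR 4.0.16, and p-values were adjusted by Benjamini-Hochberg over 13221 genes, with a threshold of 0.1. Sleuth was not used here. CPM values use TMM, and the authors' TPM values do not. A gene's transcript length is the mean over its transcripts, weighted by TPM. Total estimated counts were 23978881 to 35694987 per library, and the SE and p-values include both counting error and the spread between libraries.

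The covariate for MO2 and MC3 comes from the PCA plot of the same libraries in the study, and so is not independent of these data. Alternatives were DESeq2 1.42.0, limma 3.58.1 on log2(TPM + 0.5), other scalings and filters, a replicate block, each library left out in turn, and, added after the values were seen, removal of the length trend and the covariate fit without single libraries. The scripts were tested on simulated counts. The 50 genes, the other lists and the marker lists were chosen with earlier results of these data known. Values in each library are given for the CDK inhibitors, for genes past the threshold and, in each role, for the 2 genes with the largest change and the gene with the highest TPM. From the other lists the 5 called genes with the largest change in either direction are named, and other genes shown with library values were chosen after their values were seen.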

Additional observations from a re-analysis of the deposited data

How the results depend on the processing

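Of 1078 log2 fold changes (49 genes under 22 alternatives), 737 kept direction and side of the threshold, 251 of 37 genes passed it newly, 55 of 5 genes no longer passed, and 35 of 6 genes changed sign. The causes were not tested. Over all genes tested (579 genes called by edgeR), DESeq2's Wald test called 1268, limma 356 (224 with a pseudocount of 1), the covariate for MO2 and MC3 3999, the 4 other libraries 1655 and a threshold of 0.05 called 2. Among the 49 genes (5 called), DESeq2 called 25, the covariate 41, the 4 libraries 30 and removal of the length trend 15. A threshold of 0.05 called 0 of the 49. Library size in place of TMM called 14, and no filter and a filter of 5 counts in 3 libraries 3 each. For library size and these filters the counts over all genes are not given, so 14 and 3 cannot be set against them. Limma called 5 of the 49 with a pseudocount of 0.5, none of them among edgeR's 5 (they were Mcm2, Mcm5, Pcna, Rrm1 and Ube2c), 6 with 0.1, which added Rrm2, and 4 with 1, which left out Mcm2. Among the 137 genes of the other lists (14 called), these were 44 for DESeq2, 2 for limma at each pseudocount, 103 for the covariate, 57 for 4 libraries, 24 for the length trend and 0 at 0.05.

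Leaving out each library gave 0 to 509 genes in all, 0 to 1 of the 49 and 0 to 4 of the 137. With the covariate, leaving out MO1, MO3, MC1 or MC2 gave 2866, 3450, 2372 and 3098 genes called in all, 39, 39, 37 and 39 of the 49, and 92, 101, 87 and 102 of the 137. Without the covariate, and with each of the 6 libraries left out, the median log2 fold change ranged from -0.62 to -0.42 for E2F genes, from -0.36 (without MO2) to -0.12 (without MO1) for G1 cyclins and kinases and from 0.014 (without MC3) to 0.43 for CDK inhibitors.

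The block for the replicate number called 0 of the 49 genes, 0 of the 137 and 444 genes in all. Deviations of same-numbered libraries correlated at 0.53, -0.29 and -0.52, and MO2 with MC3 at 0.73, so that not every library correlated best with its own number. The deviations also carry the difference of MO2 and MC3 from the rest. They therefore cannot decide whether same-numbered libraries were paired.

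The sign changed for 6 genes. Ccnd2 was -0.042, -0.042 and -0.042 by limma with pseudocounts of 0.5, 0.1 and 1. Ccnd3 was 0.031 by limma at each pseudocount and ranged from -0.30 to 0.12 with a library left out (0.043 without MO1, 0.053 without MO3). Cdk6 was 0.0027 with DESeq2's size factors, 0.0024 by DESeq2, 0.00081 with the replicate block and 0.070 on 4 libraries, ranged from -0.11 to 0.14 (0.058 without MC1, 0.013 without MC2), and with the covariate was 0.041 without MO1 and 0.012 without MC1. Mki67 was 0.049, 0.061 and 0.036 by limma at the 3 pseudocounts, 0.14 with the block, 0.055 with the covariate and 0.27 on 4 libraries, ranged from -2.17 (without MC3) to 2.20 (without MO2), and with the covariate was 0.021 without MO1 and 0.016 without MC2. Ccnb2 ranged from -0.18 to 0.052 (0.0074 without MO3). Cenpe was 0.062 on 4 libraries and ranged from -1.86 (without MC3) to 1.57 (without MO2).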

Other observations

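Of the 37 other cell cycle regulators tested, 6 (16.2%) were called higher in co-culture with the covariate for MO2 and MC3, close to the 13.9% of all genes tested, and 12 (32.4%, against 16.4%) were called lower, so that the values below describe single genes and not the list. None of the 6 passed over all 6 libraries by edgeR's quasi-likelihood test, where 11 of the 37 had an unadjusted p under 0.05 (14.3% of all genes tested had). The 6 were Ccng2, Btg1, Btg2, Gadd45b, Gas1 and Tfdp2, named here after their values were seen. Ccng2 encodes an unusual cyclin of resting cells, Btg1 and Btg2 are antiproliferative genes, Gadd45b answers to stress, Gas1 marks growth arrest, and Tfdp2 is a partner of the E2F factors.

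Ccng2 had 34.0, 56.3 and 65.0 CPM in MS-5 only and 104, 101 and 105 CPM in co-culture, with a log2 fold change of 0.99 (adjusted p = 0.109, and 0.03 with the covariate, from edgeR). Btg1 had 161, 209 and 203 CPM in MS-5 only and 265, 258 and 311 CPM in co-culture, with a log2 fold change of 0.54 (adjusted p = 0.191, and 0.0192 with the covariate). In these genes, as in Tfdp2, all co-culture libraries were above all MS-5 only libraries in CPM. This held for 3 of the 37 regulators (8.11%), against 11.6% of all genes tested. In TPM it held for 1 of the 37, Ccng2, against 7.68% of all genes tested. Btg2 had 5.19, 29.5 and 6.75 CPM in MS-5 only and 16.9, 29.7 and 126 CPM in co-culture, with the high libraries MO2 and MC3 in each group and a log2 difference of 2.05 (SE 0.97, adjusted p = 0.415, and 0.011 with the covariate). Gadd45b (0.90, adjusted p = 0.355) and Gas1 (0.47, adjusted p = 0.381) also had groups that overlapped.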
